A study of Rattus norvegicus with 6 samples.

Results

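The 6 genes described here encode surface proteins by which epithelial stem and progenitor cells are commonly recognised and sorted: Epcam, Alcam, Cd9, Cd44, Prom1 and Cd24. They were chosen by name, with earlier results of these data known. Of these, 6 of 6 were found among the 18166 genes that could be named and tested, each through 1 probe set. Total RNA came from the epididymis, the duct in which sperm mature, of Sprague-Dawley rats aged 48 days, whose cells were parted with magnets into basal and non-basal fractions. There were 3 Affymetrix RaGene 2.0 ST arrays for each fraction, numbered by their replicate number, and all levels below are log2 values normalised by the authors with RMA. The labels name 3 rats without tying an array to an animal, so p-values reflect the spread among these arrays, part or all of which may be technical. Both fractions shared strain, age and tissue, and the labels name no treatment or altered allele. Which molecule the magnetic step bound is not stated there, and a protein used for that step could differ through the selection itself.

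EpCAM is a homophilic adhesion protein of epithelia that stabilises claudins at cell contacts. ALCAM (CD166) is an immunoglobulin-like adhesion molecule, and CD9 is a tetraspanin that gathers integrins and other partners into membrane patches. CD44 is the main receptor for the matrix sugar hyaluronan, prominin-1 (CD133) sits on microvilli and other membrane protrusions, and CD24 is a small glycosylated protein held by a lipid anchor. In several epithelia combinations of these proteins mark cells of the basal layer or of the luminal layer, and basal cells of the epididymis have themselves been described as progenitor-like.

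With limma and Benjamini-Hochberg adjustment at 0.05, 1401 of all genes were higher in the basal fraction and 1297 were lower. These were 7.71% and 7.14% of the genes tested, together 14.9%, with a median log2 difference (basal minus non-basal) over all genes of 0.00343. With each array centred on the median of the named genes, a setting added after seeing the data, 2166 were higher and 1177 were lower. Of 20 measured markers of basal epithelium 20 were higher, among them the transcription factor Tp63 (log2 difference 3.10 ± 0.266 (SE), adjusted p = 0.00247). Their mean log2 level ranged from 10.11 to 10.51 on basal arrays and from 7.45 to 8.14 on non-basal arrays. Of 16 fibroblast markers 16 were lower, with mean log2 levels of 7.61 to 9.20 on basal arrays and 11.29 to 12.26 on non-basal arrays. The fibroblast count was 8 without basal array 2 or non-basal array 3, 9 without non-basal array 2 and at least 15 without any of the others. Markers of smooth muscle (10 of 11 lower), endothelium (12 of 13) and lymphocytes (8 of 17) were also lower, the lymphocyte count being 12 without non-basal array 1 and 5 without basal array 1 or 2 or non-basal array 2 or 3. Of 21 principal cell and luminal markers 2 were called higher, the keratin genes Krt8 and Krt19, and 1 lower, Spag11a. At an unadjusted p under 0.05, 2 of these markers were higher and 7 lower. Their calls depended on single arrays: 1 was higher and 8 were lower without basal array 3, 5 were higher and 2 lower without non-basal array 1, and limma called 0 without any one of the others. With array weights, 5 were higher and 9 lower. Of 11 narrow and clear cell markers limma called 0, and 0 lay at an unadjusted p under 0.05. Without basal array 3, 1 of these was lower. Of macrophage and dendritic markers 3 of 18 were lower, and of nerve and glia markers 1 of 7 was higher, the myelin gene Mbp, which was named after its value was seen. The macrophage and dendritic count was 12 without non-basal array 1, 1 without basal array 2 or 3 and 0 without basal array 1 or non-basal array 2 or 3. Of the nerve and glia markers 0 were called higher by limma without basal array 1 or 2 or any one non-basal array, and 2 were lower without non-basal array 1. In limma 0 of 5 blood and platelet markers and 0 of 10 sperm and germ cell markers were called, with 1 gene of each list at an unadjusted p under 0.05. Without non-basal array 1, 3 blood and platelet markers were lower. RMA values have no 0, so the absence of a marker could not be read from them. Basal array 3 had the highest basal level of fibroblast, smooth muscle and luminal markers, and non-basal array 1 had the lowest level of basal markers and the highest of luminal markers. Among non-basal arrays, array 1 was also lowest in fibroblast, smooth muscle, lymphocyte and macrophage markers. It was the highest of them in endothelial and in narrow and clear cell markers. Its macrophage and dendritic level, 7.74, lay within the 7.63 to 8.05 of basal arrays. In bulk fractions fewer cells of a type and less RNA per cell cannot be told apart.

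The basal fraction was higher in Epcam, Cd44 and Cd9 by a little over 1 log2 unit each and lower in Alcam by 0.61. Prom1 lay lower in value without passing the test, and the fractions overlapped for Cd24. Thus 3 of the 6 genes were called higher, 1 was called lower and 2 were not called, against the 7.71% and 7.14% of all genes. Without basal array 3 and non-basal array 1 together, 3 were higher and 2 lower, Prom1 being added. These 2 arrays differed most from the others of their fraction, and the labels do not single them out. That fit is therefore not separate support. Only Epcam was called without basal array 1, basal array 2, non-basal array 2 or non-basal array 3, and without non-basal array 1 the calls were Epcam and Cd9. Over all genes, the fits with only Epcam called gave 509 to 624 higher and 542 to 637 lower. All-gene counts were 1401 and 1297 with all arrays, and 2499 and 2124 without basal array 3 and non-basal array 1 together. In the 5 genes other than Cd24 the 3 values of one fraction all lay above those of the other, as they did in 32.9% of all genes. In all 6 genes basal array 3 was the basal array closest to the non-basal mean. For 4 of them, Epcam, Alcam, Prom1 and Cd24, non-basal array 1 held the highest non-basal value. How often all genes show these 2 patterns was not counted. Over all genes basal array 3 differed from basal arrays 1 and 2 by an SD of 0.322 and 0.31, against 0.217 between basal arrays 1 and 2. Whether the other cell types on these 2 arrays bear on the member values was not tested.

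**Figure D1:**
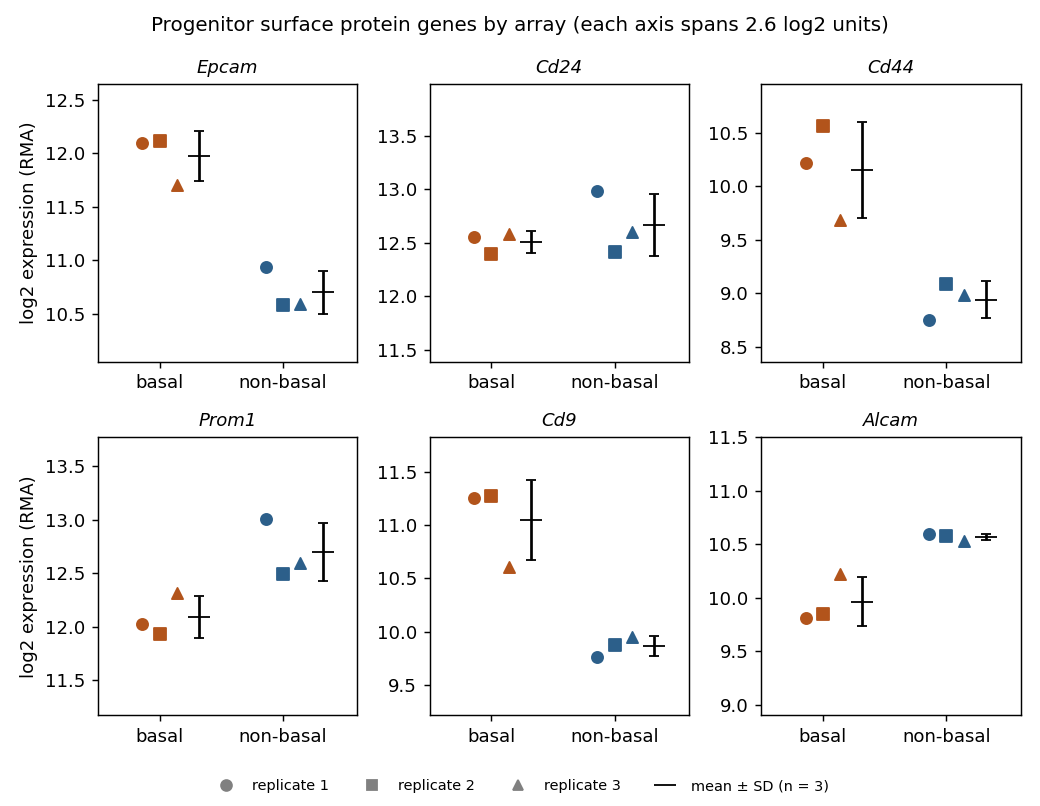
Log2 RMA level (vertical axis, each spanning the same number of log2 units) of the 6 genes on the 3 basal arrays (left, orange) and the 3 non-basal arrays (right, blue). Marker shapes stand for replicate numbers and bars for the mean ± SD; levels are not comparable between genes. Epcam, Cd44 and Cd9 lie higher on every basal array, Alcam and Prom1 lie lower, and Cd24 overlaps.

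Epcam, the epithelial adhesion gene, had log2 levels of 12.10, 12.12 and 11.70 on basal arrays 1 to 3, against 10.93, 10.58 and 10.59 on non-basal arrays 1 to 3. Every basal array was above every non-basal one, with a gap of 0.77 between the nearest arrays. The basal mean was 11.97 ± 0.233 and the non-basal mean 10.70 ± 0.201 (SD, n = 3 each). The log2 difference was 1.27 ± 0.155 (SE), a 2.41-fold higher level in the basal fraction (limma adjusted p = 0.00521). This call held in 6 of 6 fits with 1 array left out, with adjusted p between 0.00441 and 0.0390, and it was the call among the 6 genes that held at an adjusted p under 0.01.

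Genes that work with EpCAM were mostly higher or not called. Of 16 measured genes of this list 5 were higher, 1 was lower and 10 were not called, with a median log2 difference of 0.39. Among the claudins, which seal tight junctions, Cldn1 was higher by 1.90 ± 0.242 and Cldn4 by 1.08 ± 0.13 (adjusted p = 0.00573 and 0.00506). Cldn7, the claudin that binds EpCAM directly, had a difference of 0.25 ± 0.224 (adjusted p = 0.490), and without non-basal array 1 its adjusted p was 0.0134. The cadherin of epithelial junctions, Cdh1, was higher by 0.89 ± 0.117 (adjusted p = 0.00639). Adam17, a protease that releases the outer part of EpCAM, was higher by 0.54 ± 0.0741 (adjusted p = 0.00747). Psen2, a catalytic part of the gamma-secretase that cuts the remaining stub, was lower, at -0.46 ± 0.0956 (adjusted p = 0.0279). The epithelial transcription factor Grhl2 was higher by 0.62 ± 0.126 (adjusted p = 0.0260). Calls for Cldn1, Cldn4, Cdh1 and Adam17 held in all 6 fits with 1 array left out, whereas Grhl2 held in 2 and Psen2 in 3, with adjusted p up to 0.103 if non-basal array 3 was dropped and 0.111 without basal array 2. Without non-basal array 1, 10 genes of the list were higher and 1 was lower. The keratin genes Krt8 and Krt19 of the luminal markers were higher by 0.93 and 0.87, Krt18 was not called, and fibroblast markers were lower. The part of the mix of cells in the Epcam values and in those of this list was not tested.

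Alcam, the immunoglobulin-like adhesion gene, went the other way. Its log2 levels were 9.81, 9.85 and 10.23 on basal arrays 1 to 3, against 10.59, 10.58 and 10.53 on non-basal arrays 1 to 3. The non-basal arrays lay within a narrow band above every basal array, and basal array 3 was the nearest to them. The basal mean was 9.96 ± 0.230 and the non-basal mean 10.57 ± 0.0303 (SD, n = 3 each). The log2 difference was -0.61 ± 0.122 (SE), a 1.52-fold lower level in the basal fraction (limma adjusted p = 0.0247). The call held in 1 of 6 fits with 1 array left out, with adjusted p of 0.00301 without basal array 3. Without basal arrays 1 or 2 or non-basal arrays 1, 2 or 3 it was 0.0914, 0.103, 0.0587, 0.0897 and 0.0942, while the difference stayed between -0.74 and -0.53. With the replicate number as a block the adjusted p was 0.0593.

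Related adhesion molecules went both ways. Of 19 measured, 5 were higher, 3 were lower and 11 were not called, with a median log2 difference of 0.01. The nectin genes Nectin1 and Nectin2, which start cell contacts, were higher by 1.95 ± 0.178 and 1.16 ± 0.201 (adjusted p = 0.00266 and 0.0150). Bcam, a laminin receptor, was higher by 1.59 ± 0.196 (adjusted p = 0.00535), and Nrcam, a relative of L1, by 0.76 ± 0.122 (adjusted p = 0.0119). Mcam, an adhesion molecule of endothelium and pericytes, was lower at -2.17 ± 0.21 (adjusted p = 0.00304), and Cadm3 was lower at -1.07 ± 0.152 (adjusted p = 0.00809). Cd6, the T cell receptor for ALCAM, had a difference of 0.01 ± 0.142 (adjusted p = 0.979), and its sign changed under 6 alternatives. Left-out arrays cost the call of Cadm3 (0.0504 without basal array 2), Nrcam (0.0598 without basal array 2) and Nectin2 (0.0802 without non-basal array 3), but not those of Nectin1, Bcam or Mcam. The number called fell to 5 without basal array 1, 3 without basal array 2, and 4 without non-basal array 2 or 3. Smooth muscle markers had a mean log2 level of at most 8.75 on basal arrays and at least 10.20 on non-basal arrays. Endothelial markers had mean levels of 6.91 to 7.23 on basal and 8.27 to 8.46 on non-basal arrays. Their part in the Alcam and Mcam values was not tested.

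Cd9, the tetraspanin gene, had log2 levels of 11.25, 11.27 and 10.61 on basal arrays 1 to 3, against 9.77, 9.88 and 9.96 on non-basal arrays 1 to 3. Every basal array was above every non-basal one, and basal array 3 lay well below the other basal arrays. The basal mean was 11.04 ± 0.376 and the non-basal mean 9.87 ± 0.0957 (SD, n = 3 each). The log2 difference was 1.18 ± 0.19 (SE), a 2.26-fold higher level in the basal fraction (limma adjusted p = 0.0121). The call held without basal array 3 (adjusted p = 0.00177) and without non-basal array 1. It was lost without basal arrays 1 or 2 or non-basal arrays 2 or 3, at adjusted p of 0.0588, 0.0598, 0.0569 and 0.0597, with the difference between 1.06 and 1.39 in all 6 fits.

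With all arrays, the partners of CD9 that were called were higher, and its fellow tetraspanins that were called were lower. Of 27 measured genes of the tetraspanin web, which held tetraspanins and their partners, 4 were higher, 6 were lower and 17 were not called, with a median log2 difference of -0.20. The 4 higher genes were partners, and the 6 lower genes were tetraspanins. The laminin-binding integrin subunits Itga3 and Itga6 were higher by 2.09 ± 0.157 and 2.08 ± 0.213 (adjusted p = 0.00209 and 0.0034). Both genes are also among the basal epithelial markers. Hbegf, the membrane-bound growth factor that associates with CD9, was higher by 2.17 ± 0.219 (adjusted p = 0.00327). Ptgfrn, a direct CD9 partner of the immunoglobulin family, was higher by 0.55 ± 0.126 (adjusted p = 0.0364). Its relative Igsf8 had a difference of -0.16 ± 0.111 (adjusted p = 0.395).

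Cd81, a close relative of CD9, was lower, with a log2 difference of -0.56 ± 0.126 (adjusted p = 0.0345). Tspan5 and Tspan7 were lower at -0.76 ± 0.0922 and -0.60 ± 0.124 (adjusted p = 0.00513 and 0.0271). Cd53, a tetraspanin of leukocytes, was lower at -1.95 ± 0.367 (adjusted p = 0.0199). Lymphocyte markers had mean log2 levels of 6.21 to 6.55 on basal and 7.24 to 7.97 on non-basal arrays, and their part in the Cd53 value was not tested. Cd151, the integrin-binding tetraspanin of hemidesmosomes, had a difference of 0.41 ± 0.11 (adjusted p = 0.0602) and an adjusted p of 0.0125 without non-basal array 1. Under 6 of 20 alternative settings Cd151 was called higher. The calls of Itga3, Itga6, Hbegf and Tspan5 held in all 6 fits with 1 array left out. Those of Cd53, Tspan7, Cd81 and Ptgfrn held in 1 fit each, with adjusted p up to 0.0950 and 0.111 without non-basal array 3 and 0.133 and 0.132 without basal array 2. Tetraspanin web genes called lower numbered 1 without basal array 1, basal array 2, non-basal array 2 or non-basal array 3, 3 without basal array 3 and 4 without non-basal array 1.

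Cd44, the hyaluronan receptor gene, had log2 levels of 10.21, 10.56 and 9.68 on basal arrays 1 to 3, against 8.75, 9.08 and 8.98 on non-basal arrays 1 to 3. The groups did not overlap, and the basal arrays were more spread out than for any other of the 6 genes. The basal mean was 10.15 ± 0.446 and the non-basal mean 8.94 ± 0.170 (SD, n = 3 each). The log2 difference was 1.21 ± 0.231 (SE), a 2.32-fold higher level in the basal fraction (limma adjusted p = 0.0208). The call held in 1 of 6 fits with 1 array left out, with adjusted p of 0.00604 without basal array 3. Without basal arrays 1 or 2 or non-basal arrays 1, 2 or 3 it was 0.0906, 0.0613, 0.0550, 0.0671 and 0.0894, with differences from 1.01 to 1.45 over the 6 fits. The array gave 1 value for the gene, so standard and variant isoforms of CD44 were not distinguished.

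In the hyaluronan system the receptor gene was higher, whereas 2 of the 3 genes of enzymes that make its ligand were lower. The synthase gene Has1 had log2 levels of 6.70, 6.89 and 7.36 on basal arrays, against 9.60, 10.72 and 10.57 on non-basal arrays. It was 9.95-fold lower in the basal fraction (log2 difference -3.31 ± 0.332, limma adjusted p = 0.00323). Has2, the second synthase gene, was 4.80-fold lower (-2.26 ± 0.354, adjusted p = 0.0110), and Has3 had a difference of 0.09 ± 0.145 (adjusted p = 0.728) whose sign changed without basal array 1. Vcan, the hyaluronan-binding proteoglycan versican, was 5.10-fold lower (-2.35 ± 0.268, adjusted p = 0.00438). Srgn, the core of serglycin, a granule proteoglycan that can bind CD44, was lower at -1.48 ± 0.161 (adjusted p = 0.0039). Hyal1, a hyaluronan-degrading enzyme of lysosomes, was 2.17-fold higher (1.12 ± 0.122, adjusted p = 0.00389). Its relatives Hyal2 and Hyal3 were not called (0.60 and 0.0011, limma adjusted p = 0.0622 and 0.996). Cemip and Cemip2, further genes tied to hyaluronan breakdown, were not called either (-0.16 and -0.06, limma adjusted p = 0.592 and 0.619).

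The epithelial splicing regulators, which act on CD44 transcripts among others, were measured as well. Esrp2 was higher by 0.64 ± 0.146 (adjusted p = 0.0359). Esrp1 had a difference of 0.51 ± 0.185 (adjusted p = 0.130), and an adjusted p of 0.00488 without non-basal array 1. In all, 2 of 24 measured genes of this list were higher, 4 were lower and 18 were not called, with a median log2 difference of 0.04. The calls of Has1, Vcan, Srgn and Hyal1 held in all 6 fits with 1 array left out. That of Has2 held in 3, reaching 0.0655 without non-basal array 3, and that of Esrp2 in 1, reaching 0.137 without that array. Of the 24 genes, 6 were called higher and 6 lower without non-basal array 1, and 1 higher and 3 lower without basal array 1, basal array 2 or non-basal array 3. Without basal array 3 or non-basal array 2, 1 was higher and 4 were lower. The 16 fibroblast markers differed in the same direction as Has1, Has2 and Vcan, and their part in these values was not tested.

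**Figure D2:**
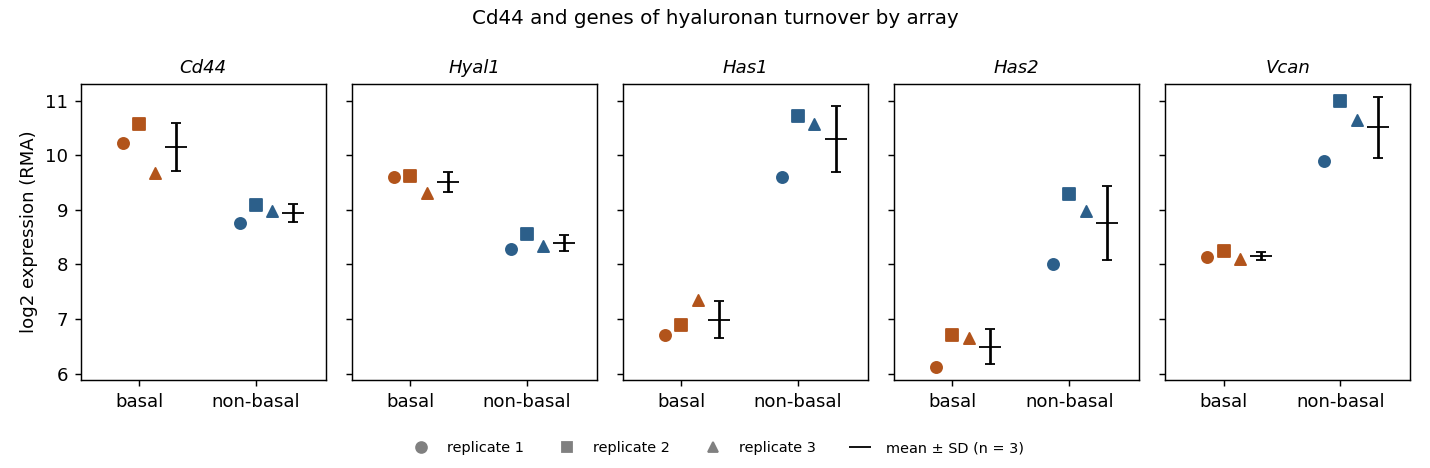
Log2 RMA level (vertical axis) of Cd44, of the hyaluronan-degrading enzyme gene Hyal1, of the synthase genes Has1 and Has2 and of versican (Vcan) on 3 basal arrays (left, orange) and 3 non-basal arrays (right, blue), with the mean ± SD. Cd44 and Hyal1 lie higher on every basal array and Has1, Has2 and Vcan lie lower; levels are not comparable between genes.

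Prom1, the gene of the protrusion protein prominin-1, had log2 levels of 12.03, 11.94 and 12.31 on basal arrays 1 to 3, against 13.01, 12.49 and 12.60 on non-basal arrays 1 to 3. Every basal array was below every non-basal one, but the nearest arrays were only 0.18 apart. The basal mean was 12.09 ± 0.197 and the non-basal mean 12.70 ± 0.273 (SD, n = 3 each). The log2 difference of -0.61 ± 0.167 (SE; 95% interval -1.02 to -0.20) did not pass after adjustment (limma adjusted p = 0.0640). It passed after quantile normalization over all probe sets (adjusted p = 0.0404), median centring (0.0483), a filter at a group mean of 7 (0.0388) and array weights (0.0154). It also passed without basal array 3 and non-basal array 1 together (0.0162), but in 0 of 6 fits lacking 1 array, where the adjusted p ranged from 0.0503 to 0.210. The labels do not single out basal array 3 or non-basal array 1.

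The luminal markers were highest on the same array as Prom1. Their mean log2 level was 10.53, 10.82 and 11.21 on basal arrays 1 to 3 and 11.40, 10.95 and 10.97 on non-basal arrays 1 to 3, and their part in the Prom1 values was not tested. Of 14 measured prominin and apical protrusion genes 2 were higher, 0 were lower and 12 were not called by limma, with 4 lower at an unadjusted p under 0.05 and a median log2 difference of -0.21. The 2 were the flotillin genes Flot2 and Flot1, of membrane microdomains, at 0.49 ± 0.0909 and 0.46 ± 0.0999 (adjusted p = 0.0189 and 0.0309). Their calls held in 3 and 1 of 6 fits lacking 1 array, with adjusted p of 0.0832 and 0.120 without basal array 2. Prom2, the second prominin gene, had a difference of -0.27 ± 0.27 (adjusted p = 0.549). Cav1, which encodes the coat protein of caveolae, lay at -0.66 ± 0.167 (adjusted p = 0.0503), Hdac6, a cytoplasmic deacetylase that binds prominin-1 in human cells, at -0.86 ± 0.239 (0.0661), Espn, which bundles actin in microvilli, at -0.73 ± 0.246 (0.110) and Plekhb1 at -0.31 ± 0.124 (0.161). Cav1 was called lower under 10 of 20 alternative settings and Hdac6 under 6. Without basal array 3, 2 genes were lower, Hdac6 and Espn, with adjusted p of 0.0419 and 0.0279. The number called higher was 0 without basal array 1, basal array 2 or non-basal array 3 and 1 without either remaining non-basal array.

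Cd24, the gene of the small anchored glycoprotein, had log2 levels of 12.56, 12.39 and 12.58 on basal arrays 1 to 3, against 12.98, 12.41 and 12.60 on non-basal arrays 1 to 3. The fractions overlapped, and non-basal array 1 stood above the other 5 arrays. The basal mean was 12.51 ± 0.103 and the non-basal mean 12.66 ± 0.291 (SD, n = 3 each). The log2 difference of -0.15 ± 0.155 (SE) did not pass (limma adjusted p = 0.547). Its 95% interval ran from -0.53 to 0.23. Without non-basal array 1 the difference was 0.01 (adjusted p = 0.980).

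Receptors of CD24 and other small anchored surface genes were mostly lower or not called. Of 16 measured, 1 was higher, 6 were lower and 9 were not called, with a median log2 difference of -0.58. The selectin gene Selp, whose product binds CD24 and is made by endothelium and platelets, was lower at -1.91 ± 0.231 (adjusted p = 0.00518), and the endothelial selectin gene Sele at -1.06 ± 0.241 (adjusted p = 0.0364). Siglec10, in humans a leukocyte receptor of CD24, was lower at -0.57 ± 0.112 (adjusted p = 0.0229). Thy1, a lipid-anchored protein of fibroblasts and T cells, was 8.19-fold lower (-3.03 ± 0.377, adjusted p = 0.0055). Podxl, a sialomucin of endothelium, was lower at -1.33 ± 0.153, and Cd55, a lipid-anchored brake on complement, at -2.02 ± 0.283 (adjusted p = 0.00452 and 0.00775). The calls of Selp, Thy1 and Podxl held in all 6 fits with 1 array left out, Cd55 in 5 (0.0507 without non-basal array 3), Siglec10 in 3 and Sele in 2 (0.0920 and 0.136 without basal array 2). Of the list, 4 genes were lower without basal array 2 or non-basal array 2 and 3 without non-basal array 3. The lower count was 5 without basal array 1 and 8 without non-basal array 1. Without basal array 3, 2 were higher and 6 lower. Endothelial, fibroblast and lymphocyte markers were lower in the basal fraction too, and their part in these values was not tested.

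**Figure D3:**
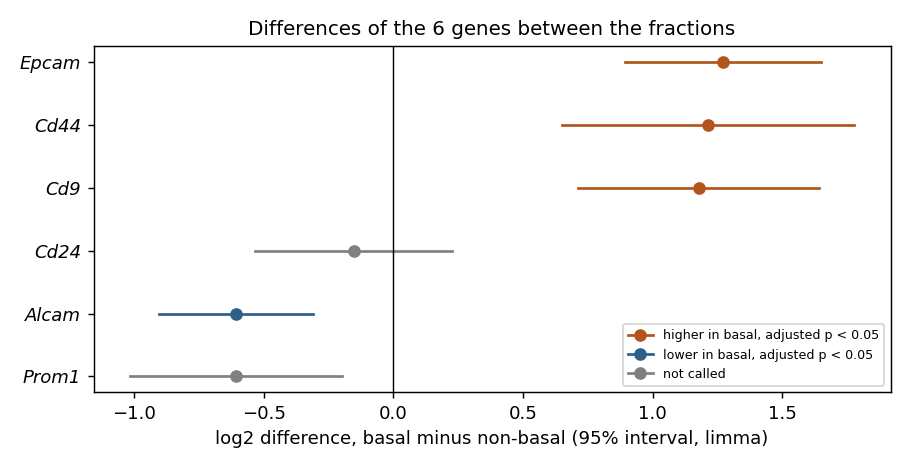
Log2 difference (basal minus non-basal, horizontal axis) of the 6 genes with its 95% interval from limma. Epcam, Cd44 and Cd9 lie between 1.18 and 1.27, Cd24 at -0.15 with an interval that spans 0, and Alcam and Prom1 at -0.61; Prom1 is drawn as not called because its adjusted p is 0.0640.

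Other surface genes used to mark epithelial progenitors were also divided. Of 24 measured, 6 were higher, 5 were lower and 13 were not called, with a median log2 difference of -0.10. The hemidesmosome integrin subunit Itgb4 was 7.05-fold higher (2.82 ± 0.176, adjusted p = 0.00177) and the placental cadherin gene Cdh3 was higher by 2.81 ± 0.254 (adjusted p = 0.00266). Met, the receptor of hepatocyte growth factor, was 4.68-fold higher (2.23 ± 0.213, adjusted p = 0.00295). Notch3, a Notch receptor prominent in vascular smooth muscle, was lower at -0.87 ± 0.0787 (adjusted p = 0.00266). These 4 calls held in all 6 fits with 1 array left out. Over the 7 partner lists together, 24 of 133 distinct genes were higher and 23 were lower, 18.0% and 17.3%, against 7.71% and 7.14% of all genes. The lists were chosen with earlier results of these data known. They share genes with the marker lists, among them Itga3, Itga6, Itgb4, Cdh3 and Cldn1 of the basal epithelial markers. Partner and marker counts are therefore not separate results. The number of partner genes called, 47 in all, was 29 without basal array 1 or non-basal array 2, 25 without basal array 2 and 27 without non-basal array 3. Over all genes the same fits gave 509 to 624 higher and 542 to 637 lower, so calls fell there too.

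**Figure D4:**
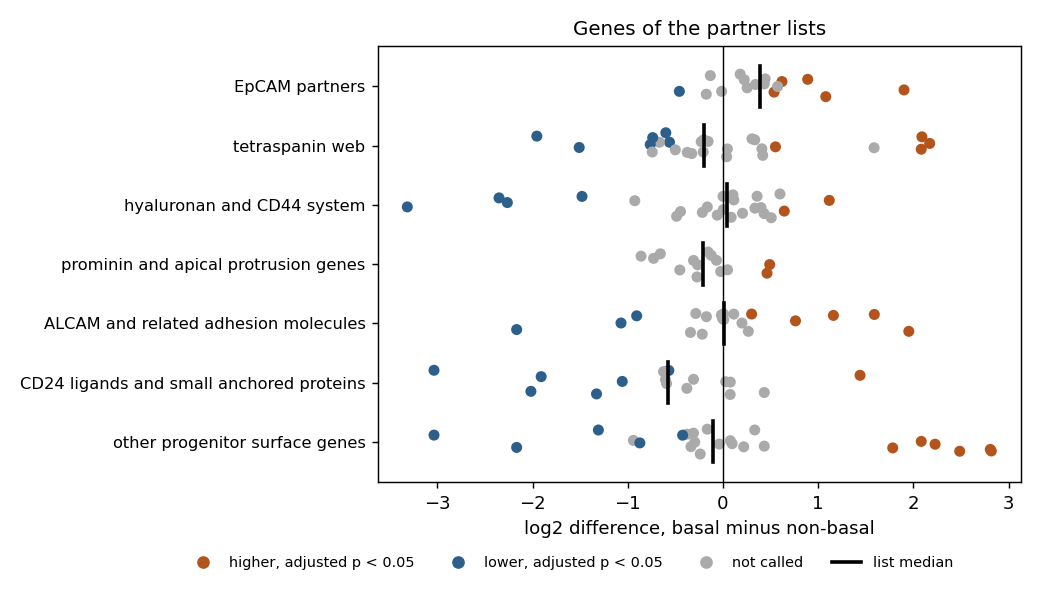
Log2 difference (basal minus non-basal, horizontal axis) of each measured gene in the 7 partner lists, 1 dot per gene, coloured by the limma call, with a black bar at the list median. Medians lie between -0.58, for CD24 ligands and small anchored proteins, and 0.39, for EpCAM partners, and every list holds genes called higher.

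The genes most like each member were taken by Pearson's r of log2 levels over the 6 arrays, among 2750 named genes whose values spanned at least 1 log2 unit. The 6 points share RNA fractions and normalization, so r is given as a description only. For members other than Cd24, with 2 separate groups of arrays, r mostly reflects the fraction. For Epcam they were Fgd6, an activator of small GTPases, Fam83h, a keratin-associated protein gene, and Gpx2, an epithelial glutathione peroxidase gene (r = 0.999, 0.998 and 0.998). Their log2 differences were 1.18, 2.04 and 1.49. For Cd9 they were Plec, the hemidesmosome linker plectin, Zfp365 and the kinase gene Prkx (r = 0.999, 0.999 and 0.998), with differences of 1.00, 0.90 and 1.39. For Cd44 they were the zinc finger gene Zfp281, Rpl12l2 and R3hcc1l (r = 0.999, 0.996 and 0.994), with differences of 0.95, 0.77 and 0.76. Ribosomal protein genes have close copies, so the signal of Rpl12l2 is uncertain.

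For Alcam the nearest genes were Thsd4, a microfibril-associated gene, the glutamine transporter gene Slc1a5 and Myh11, the smooth muscle myosin heavy chain (r = 0.999, 0.997 and 0.997). These were lower at -1.20, -1.26 and -2.84. For Prom1 they were the carnitine transporter gene Slc22a5, the lipid phosphatase gene Sgpp1 and the proton pump subunit gene Atp6v0e2 (r = 0.999, 0.997 and 0.997), none of which was called (differences of -0.85, -0.59 and -0.69, adjusted p of 0.0610, 0.0883 and 0.0872). For Cd24 likeness was lower, with Fndc9, the electron carrier gene Cyb561 and the clear cell proton pump subunit gene Atp6v0d2 at r = 0.984, 0.977 and 0.965, and again none was called. Like Cd24, these genes overlapped between the fractions and were highest on non-basal array 1.

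Epcam, Cd9 and Cd44 differed in the same direction. For Epcam and Cd9 the sequence before the annotated start is shown, as far as it lies outside the annotated gene. For Cd44 0 bases of the window lay outside it. The sequences come from RefSeq on rat build GRCr8, which may differ from the build of the array. Both are on the minus strand and read 5′ to 3′ towards the start, Epcam at chr6:12649679-12649928 and Cd9 at chr4:159975464-159975608. Capitals mark matches on either strand to TGANTCA (AP-1), CACCTG (an E-box of the kind bound by Zeb and Snail factors) and GGGCGG (GC box).
Epcam: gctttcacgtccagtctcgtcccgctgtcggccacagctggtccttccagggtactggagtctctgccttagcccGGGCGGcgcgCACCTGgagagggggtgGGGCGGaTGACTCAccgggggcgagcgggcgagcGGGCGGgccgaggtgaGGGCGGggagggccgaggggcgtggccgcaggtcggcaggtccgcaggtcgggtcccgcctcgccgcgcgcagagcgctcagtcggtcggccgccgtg
Cd9: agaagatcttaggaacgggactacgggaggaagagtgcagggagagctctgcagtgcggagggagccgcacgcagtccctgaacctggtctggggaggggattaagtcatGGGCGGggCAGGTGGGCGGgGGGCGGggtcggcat

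The Epcam window of 250 bases held 1 AP-1 match, which began 141 bases before the start, 1 E-box match at 165 bases and 4 GC boxes. The Cd9 window held 1 E-box match, which overlaps a GC box, and 3 GC boxes, and no AP-1 match. Of 33469 RefSeq windows of that length, 6.3% held the AP-1 letters, 15.9% the E-box letters and 30.5% the GC box letters. The windows of Cd44, Alcam, Cd24 and Prom1 lay wholly inside the annotated gene, unlike those of Epcam and Cd9. Those of Cd44 and Alcam held none of the 3 motifs. The Cd24 window held 1 E-box match and 3 GC boxes. Of the 2 windows of Prom1, 1 held an E-box match and 2 GC boxes and the other a TGANTCA match. That match read TGAATCA, whereas the one of Epcam read TGACTCA. A match is a description of letters and not of binding, and these arrays do not measure binding.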

How the data were processed

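Biotin-labelled RNA of 6 samples was hybridised to Affymetrix RaGene 2.0 ST arrays. Per the submitters' processing notes, the authors made the deposited log2 values with RMA, using Affymetrix Expression Console. Versions, probe set library and build are not given in the sources used here. Values ran from 1.46 to 14.33, with array medians of 6.63 to 6.70. RMA forces array distributions to match over all probes, so a shift shared by most probes would be removed. Medians of the named genes alone were 7.33 to 7.40 on basal arrays and 7.44 to 7.48 on non-basal arrays. The number of arrays limits precision.

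Of 36685 probe sets, 18511 had 1 gene symbol, 575 had several and 17599 had none in the platform annotation. The brightest single-symbol probe set stood for each of 18166 genes, with no filter on dim values. The difference in log2 level, basal minus non-basal, was fitted with limma 3.58.1 in R 4.3.3 (lmFit, eBayes, two-sided, 4 residual degrees of freedom) and adjusted over all genes by Benjamini-Hochberg, with calls at 0.05. Some listed genes are not reported here.

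The 6 genes, the 7 partner lists and the 11 marker lists were chosen with earlier results of these data known. Named were the 6 genes, their 3 most alike genes, up to 6 genes of each partner list by smallest p, and direct partners. A few further marker and hyaluronan genes were named after their values were seen. Same-numbered samples had correlations of deviations of 0.0312, 0.0383 and 0.0278, against -0.0679 to 0.027 for differently numbered ones. All lay near 0, with the same-numbered values the highest, so whether the numbers pair the samples was not settled. Arrays of 1 fraction differed by an SD of at least 0.189, so none was a copy. In simulated data with 18166 genes, 32%, 70%, 98% and 98% of genes changed by 0.5, 1, 2 and 3 log2 units were called beside 4 unchanged genes, and 0 were called with none changed. Noise was drawn independently for each gene, and 50 genes were changed at each size. These rates therefore do not carry over to spread that many genes share on an array.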

Additional observations from a re-analysis of the deposited data

How the results depend on the processing

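Results were recomputed with a replicate block, with quantile normalization or median centring over all probe sets, with group-mean filters of 5 and 7, with trended robust moderation, with array weights, with the probe sets of a gene averaged, with every probe set as a feature and with thresholds of 0.01 and 0.10. They were also recomputed without each array and without basal array 3 and non-basal array 1 together, which the labels do not single out. Quantile normalization and centring over named genes only were added after seeing the data (median of all genes 0.0402 and 0.102). Epcam kept its direction and call under every one of these. Member calls: at 0.01, 1 was higher and 0 lower, Cd44 (1.21), Cd9 (1.18) and Alcam (-0.61) being lost. With the replicate block 0 were lower (Alcam -0.61, adjusted p = 0.0593), and the block changed no other member's call. Whether the replicate numbers pair the samples was not settled. Both Alcam and Prom1, 2 genes, were lower after quantile normalization over all probe sets (Prom1 -0.67) or named genes (-0.64), centring over all probe sets (-0.62), the filter at 7 (-0.61), array weights (-0.58), the 0.10 threshold (-0.61) and with basal array 3 and non-basal array 1 left out together (-0.56). Lacking 1 array, 1 to 3 members were higher and 0 to 1 lower, and differences ranged from 1.20 to 1.41 for Epcam, 1.06 to 1.39 for Cd9, 1.01 to 1.45 for Cd44, -0.74 to -0.53 for Alcam, -0.72 to -0.45 for Prom1 and -0.28 to 0.0057 for Cd24. Over all genes, 2166 were higher after centring over named genes; 2868 were higher and 2323 lower with array weights, 491 and 556 at 0.01, and 2499 and 2124 without the 2 arrays together. Leaving out 1 array gave 509 to 2068 higher and 542 to 1607 lower. Partner genes called numbered 74 with array weights, 27 at 0.01, 72 without the 2 arrays together and 25 to 56 with 1 array left out. The sign turned for Cd6 after centring (-0.00690), with array weights (-0.10), without basal array 2 (-0.04), basal array 3 (-0.00644), non-basal array 1 (-0.13) or the 2 arrays together (-0.14), and for Has3 without basal array 1 (-0.043); none of these was called, and with 1 array left out they ranged from -0.13 to 0.13 for Cd6 and from -0.043 to 0.19 for Has3. The causes of these changes were not tested.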
